A study of Homo sapiens with 22 samples.

Results

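RNA polymerase II phosphorylated on serine 5 (Pol2S5p) was compared between 22Rv1 cells given an siRNA against E2F3 (siE2F3) and 22Rv1 cells given a control siRNA (siCtrl). These are 2 of the 22 samples of the series, chosen by antibody and treatment label, with 1 library per group. 22Rv1 is an established human prostate cancer cell line. Both libraries came from chromatin immunoprecipitation followed by sequencing (ChIP-seq) with an antibody against polymerase II phosphorylated on serine 5, and each has its own list of peaks. The names of both lists carry a tag of overexpression of H1-10, a linker histone variant; the sample labels do not give it, so whether both groups overexpress H1-10 is known only from those names. Beside them stand, as further readouts in 22Rv1, the Pol2S5p and E2F3 lists of control cells (Ctrl) and of cells overexpressing H1-10 (H1-10 OE), 1 library each. No group has a replicate, so every difference below is between 2 libraries, carries no p-value and cannot be told apart from a difference in depth, antibody yield or cells. Read depth is not known here. Intervals are 95% Wilson intervals and cover counting error only.

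The C-terminal tail of the largest polymerase II subunit is phosphorylated on serine 5 as transcription starts, so this form is found at gene starts and over the first part of genes. E2F3 is a transcription factor that binds DNA with a DP partner and activates genes of the G1 to S transition, among them genes for nucleotide supply, replication licensing and DNA synthesis. Pocket proteins such as RB1 hold E2F factors in check, and E2F7 and E2F8 are repressors of the same target genes. An siRNA acts on the mRNA, so a polymerase region at the E2F3 gene does not check the knockdown. The level of E2F3 in the siE2F3 cells was not analysed here.

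All 127 cell-cycle gene starts with a Pol2S5p region within 1 kb in siCtrl had one in siE2F3. Of 129 genes, 5 differed by at least 1.5 times in the length covered within 5 kb of the start, 4 lower and 1 higher. Among windows on the strongest 10% of siCtrl summits, 6.27% were lower and 1.77% higher by that much. The promoters of 4 of these 5 genes are shown first, POLA1, E2F7, BUB1B and ANLN. They are followed by 3 targets of E2F factors whose coverage differed less, E2F1, CDC6 and MCM3. Sequences are from RefSeq on GRCh38.p14, 250 bases before to 50 after the gene start, on the gene's strand, and lie at chrX:24693668-24693967 (POLA1, plus strand), chr12:77065520-77065819 (E2F7, minus strand), chr15:40160819-40161118 (BUB1B, plus strand), chr7:36389612-36389911 (ANLN, plus strand), chr20:33686336-33686635 (E2F1, minus strand), chr17:40287629-40287928 (CDC6, plus strand) and chr6:52284693-52284992 (MCM3, minus strand). Capitals mark the E2F-type motifs searched, TTTGGCGC, TTTCCCGC, TTTCGCGC and TTTGCCGC, on both strands.
POLA1: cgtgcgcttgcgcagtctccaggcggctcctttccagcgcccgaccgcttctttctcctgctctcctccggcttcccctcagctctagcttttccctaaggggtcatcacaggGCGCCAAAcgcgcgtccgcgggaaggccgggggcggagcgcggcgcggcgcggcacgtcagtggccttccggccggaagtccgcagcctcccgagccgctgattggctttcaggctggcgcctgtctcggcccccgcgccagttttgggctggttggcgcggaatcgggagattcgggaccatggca
E2F7: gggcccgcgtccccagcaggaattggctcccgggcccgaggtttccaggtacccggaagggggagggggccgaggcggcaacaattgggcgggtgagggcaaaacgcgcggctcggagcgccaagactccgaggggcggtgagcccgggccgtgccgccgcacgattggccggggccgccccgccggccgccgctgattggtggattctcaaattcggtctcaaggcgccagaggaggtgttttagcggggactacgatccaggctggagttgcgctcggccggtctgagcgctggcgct
BUB1B: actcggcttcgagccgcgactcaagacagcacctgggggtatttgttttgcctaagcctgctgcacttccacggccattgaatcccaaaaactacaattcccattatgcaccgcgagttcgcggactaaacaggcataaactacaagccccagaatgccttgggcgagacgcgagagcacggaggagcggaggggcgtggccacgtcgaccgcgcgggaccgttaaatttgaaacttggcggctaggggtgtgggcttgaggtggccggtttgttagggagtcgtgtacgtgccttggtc
ANLN: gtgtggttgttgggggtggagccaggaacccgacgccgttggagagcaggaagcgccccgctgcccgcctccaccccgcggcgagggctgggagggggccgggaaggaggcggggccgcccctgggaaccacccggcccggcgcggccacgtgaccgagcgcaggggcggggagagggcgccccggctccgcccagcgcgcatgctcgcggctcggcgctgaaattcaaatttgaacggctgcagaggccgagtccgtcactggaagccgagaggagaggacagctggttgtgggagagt
E2F1: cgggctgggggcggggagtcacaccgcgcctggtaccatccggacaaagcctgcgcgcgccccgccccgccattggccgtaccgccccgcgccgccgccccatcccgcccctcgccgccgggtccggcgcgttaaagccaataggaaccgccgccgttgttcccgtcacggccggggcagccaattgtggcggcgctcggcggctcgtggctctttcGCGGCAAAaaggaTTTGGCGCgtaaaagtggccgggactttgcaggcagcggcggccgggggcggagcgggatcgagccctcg
CDC6: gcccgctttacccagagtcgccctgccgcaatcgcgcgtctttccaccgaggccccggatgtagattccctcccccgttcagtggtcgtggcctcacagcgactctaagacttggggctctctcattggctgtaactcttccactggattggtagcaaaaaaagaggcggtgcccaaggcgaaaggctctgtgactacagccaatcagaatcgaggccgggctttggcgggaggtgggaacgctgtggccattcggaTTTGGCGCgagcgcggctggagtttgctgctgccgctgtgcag
MCM3: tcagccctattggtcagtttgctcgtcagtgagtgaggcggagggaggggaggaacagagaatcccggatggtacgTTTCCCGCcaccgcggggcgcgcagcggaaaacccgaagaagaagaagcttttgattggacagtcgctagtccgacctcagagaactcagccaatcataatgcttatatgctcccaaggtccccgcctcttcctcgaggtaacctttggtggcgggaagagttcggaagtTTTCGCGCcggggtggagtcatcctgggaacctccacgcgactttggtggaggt
POLA1, E2F1, CDC6 and MCM3 held at least 1 motif in this window, while the letters of E2F7, BUB1B and ANLN held none. A motif was found in 33 of the 105 promoters of cell-cycle genes present in the table, 31.4% (23.3 to 40.8%), against 3.33% of all 27305 promoters. The share differed between lists: 9 of 17 licensing, 11 of 26 DNA synthesis, 2 of 18 cyclin and kinase and 1 of 19 mitosis promoters held one, and 2 of 16 housekeeping promoters. Taken singly, TTTGGCGC was in 0.659%, TTTCCCGC in 1.66%, TTTCGCGC in 0.546% and TTTGCCGC in 0.564% of all promoters. A match is a description of the letters and not a binding site.

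Pol2S5p regions were slightly fewer and shorter in siE2F3. The siCtrl list held 83650 regions covering 103 Mb, with a median width of 637 bp. The siE2F3 list held 83067 regions covering 90.7 Mb, with a median width of 582 bp. The covered length was thus 11.5% lower in siE2F3, with nearly the same number of regions. The shortest region was 265 bp in siCtrl and 252 bp in siE2F3. At the long end, 850 siCtrl regions and 613 siE2F3 regions spanned at least 10 kb, and they covered 12.8 and 8.85 Mb.

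**Figure D1:**
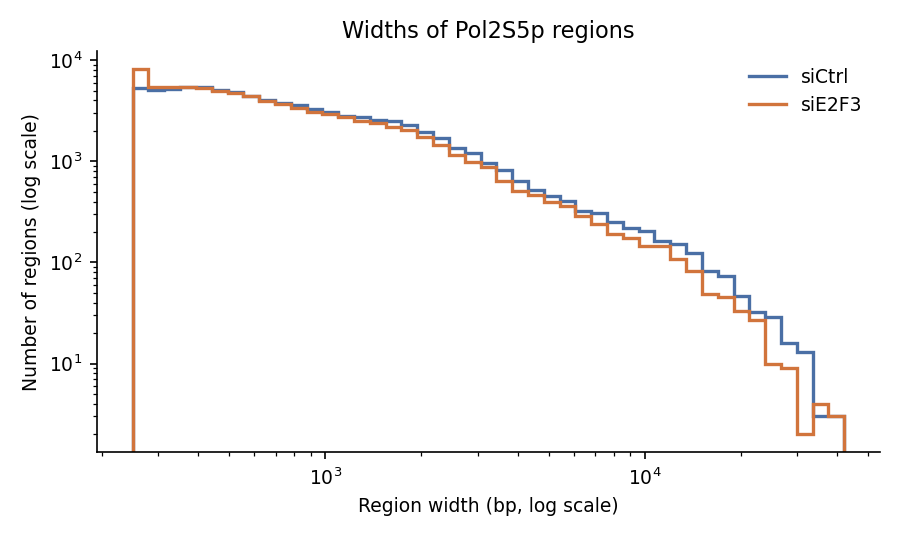
Number of Pol2S5p regions (log scale) by width in bp (log scale) in the siCtrl list of 83650 regions and the siE2F3 list of 83067 regions, 1 library each. The siE2F3 line lies above at the shortest widths and below siCtrl over most of the long ones. The shortest region is 265 bp in siCtrl and 252 bp in siE2F3, so siCtrl can fill only part of the first bin, 250 to 280 bp.

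Most of the lower coverage lay inside regions that both lists share. The lists had 74.5 Mb in common, 72.6% of the siCtrl length and 82.1% of the siE2F3 length. Shared siCtrl regions had 16.4 Mb that siE2F3 did not cover, and shared siE2F3 regions had 8.77 Mb that siCtrl did not cover. Regions found in siCtrl alone covered 11.7 Mb and regions found in siE2F3 alone 7.51 Mb. Of the net difference of -11.8 Mb, shared regions gave -7.65 Mb, or 64.7%, and whole regions found in one list gave -4.16 Mb.

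**Figure D2:**
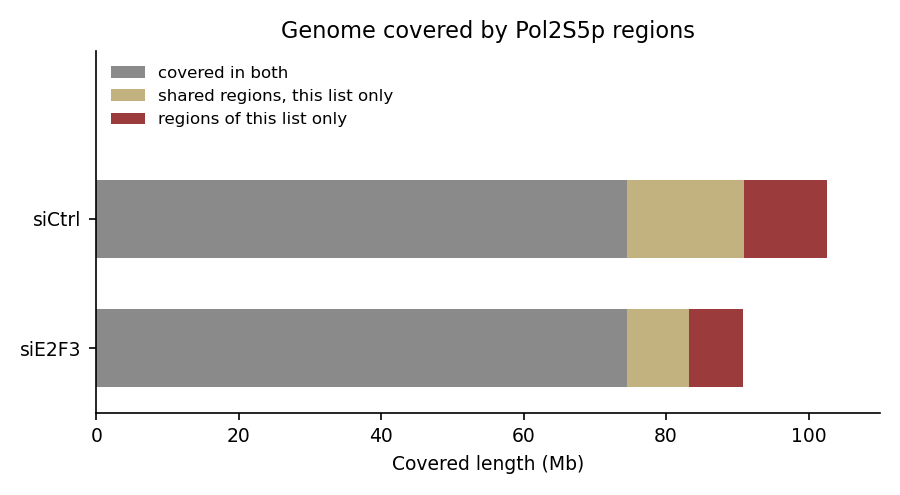
Genome length in Mb covered by Pol2S5p regions in siCtrl (103 Mb) and siE2F3 (90.7 Mb), split into bases covered in both lists, bases of shared regions covered in that list alone, and regions with no overlap in the other list. The part in both is 74.5 Mb, and both other parts are longer in siCtrl.

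Narrowing was small for a typical region and wide-ranging for single ones. At 40743 places 1 siCtrl region met 1 siE2F3 region and no other; these pairs had a median width of 780 bp in siCtrl and 682 bp in siE2F3. The median ratio of widths within a pair, siE2F3 over siCtrl, was 0.934, with a middle 50% from 0.725 to 1.13. Of the pairs, 60.6% (60.1 to 61.0%) were narrower in siE2F3, 16007 were wider and 65 were equal. At least 1.5 times narrower were 20.0% of the pairs, and at least 1.5 times wider 9.60%. Both edges moved by similar amounts: the left edge lay inward by a median of 27 bp and the right edge by 26 bp. In 31.0% of the pairs both edges lay inside those of siCtrl, and in 16.2% both lay outside. The peak summit moved by a median of 87 bp.

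The ratio lay nearest to 1 at the strongest and widest regions. In 5 equal classes ordered by the mean rank of the authors' -log10 p in both lists, the median ratio from the weakest to the strongest class was 0.913, 0.888, 0.903, 0.929 and 0.966. In the strongest class the median width was 1738 bp in siCtrl and 1653 bp in siE2F3, and 61.7% of those pairs were narrower. Pairs with a mean width above 4 kb had a median ratio of 0.984, and pairs between 0.5 and 1 kb 0.901. By chromosome, the lowest median ratio was 0.873 on chromosome 22, where 67.7% (65.0 to 70.3%) of 1195 pairs were narrower. The ratio was 0.902 on chromosome 19, and the highest was 0.982 on chromosome 13, where 52.7% (49.0 to 56.3%) of 712 pairs were narrower. The covered length in siE2F3 relative to siCtrl likewise ran from 0.829 on chromosome 22 to 0.959 on chromosome 13.

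Pairs were then divided by whether their shared bases overlapped an E2F3 region of Ctrl. This E2F3 list comes from another library of cells without the siRNA. Ctrl also differed from both siRNA libraries at luminal prostate genes: KLK3, KLK2 and TMPRSS2 had Pol2S5p in Ctrl and none in siCtrl, siE2F3 or H1-10 OE. Whether Ctrl and the other cells share a stock or passage is not given in the labels, so E2F3 of Ctrl may not stand for E2F3 in the siRNA cells. Over all strengths, the 10515 pairs with E2F3 had a median ratio of 0.943 and the 30228 without 0.927. The shares ran the other way, with 65.7% (64.8 to 66.6%) narrower among pairs with E2F3 and 58.8% (58.2 to 59.3%) without. The sets differ in width and strength: the median siCtrl width was 1502 bp with E2F3 and 629 bp without, and 7093 of the pairs with E2F3 were in the strongest class. Within each strength class the median ratio was lower with E2F3. In the second class it was 0.762 with E2F3, where 76.7% (71.1 to 81.6%) of 245 pairs were narrower, and 0.895 without, where 58.7% (57.6 to 59.7%) were. In the third class it was 0.773 with and 0.912 without, and in the fourth 0.881 with and 0.951 without. In the weakest class, with 125 pairs with E2F3, it was 0.843 against 0.914, and in the strongest 0.965 against 0.975. Width was not matched within a class, and its part in the difference was not tested.

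The same division was made for the 15700 one-to-one Pol2S5p pairs of Ctrl and H1-10 OE. Their median ratio, H1-10 OE over Ctrl, was 1.05. Pairs with E2F3 of Ctrl had a ratio of 1.10, with 37.4% (36.5 to 38.3%) narrower, and pairs without had 0.889, with 57.6% (56.3 to 58.9%) narrower. The contrast lay in the weaker classes, and some classes held few pairs. In the weakest the ratio was 1.13 with E2F3 (153 pairs) and 0.856 without (2988 pairs). In the fourth class it was 1.11 with (2997 pairs) and 1.14 without (143 pairs). In the strongest it was 1.10 with (3079 pairs) and 1.20 without (61 pairs). At places with E2F3 the typical region was narrower in siE2F3 than in siCtrl and wider in H1-10 OE than in Ctrl. Neither change was confined to them. Pairs without E2F3 were also narrower in siE2F3, with a median ratio of 0.927 and below 1 in each class. In the fourth and strongest classes the few pairs without E2F3, 143 and 61, were also wider in H1-10 OE. With 1 library per group, the difference between these comparisons was not tested.

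**Figure D3:**
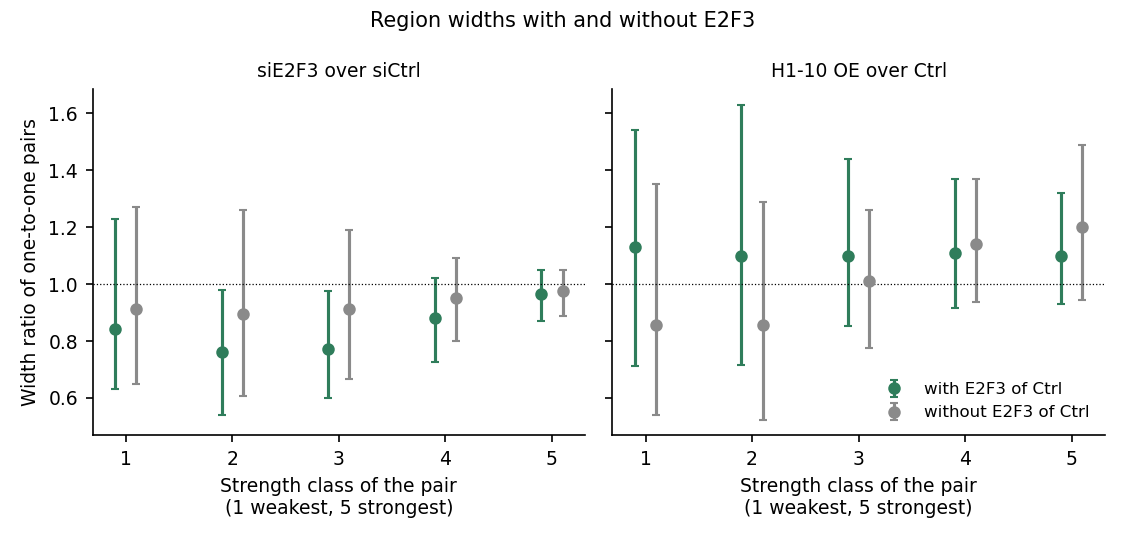
Width ratio of one-to-one Pol2S5p pairs (points are medians, bars the middle 50%) in 5 strength classes, for pairs with and without an E2F3 region of Ctrl; left, siE2F3 over siCtrl (40743 pairs), right, H1-10 OE over Ctrl (15700 pairs). On the left every median lies below 1 and the green point below the grey one in each class; on the right the medians with E2F3 lie between 1.10 and 1.13, above those without in classes 1 to 3 and below them in classes 4 and 5.

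The pairs with the most width lost and gained show what narrowing looked like on hg19. Their gene context was not analysed here. A siCtrl region on chromosome 16 from 2244120 to 2248173 spanned 4.05 kb, and its siE2F3 partner from 2246740 to 2247514 spanned 0.775 kb. On chromosome 17 a siCtrl region from 79780704 to 79784438 of 3.73 kb met an siE2F3 region of 0.551 kb. On chromosome 11 a siCtrl region from 294479 to 299745 of 5.27 kb met one of 2.55 kb. In each the siE2F3 region lay inside the siCtrl region. The largest gain was also on chromosome 16, where a siCtrl region from 8726670 to 8727452 of 0.783 kb met an siE2F3 region of 2.79 kb. On chromosome 19 a siCtrl region from 48647524 to 48649315 of 1.79 kb met one of 3.78 kb.

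Regions were broken up more often than joined. At 6207 places 1 siCtrl region met several siE2F3 regions, 14365 in all, and coverage there went from 23.1 to 19.6 Mb. At 2786 places 1 siE2F3 region joined several siCtrl regions, 5857 in all, and coverage went from 7.17 to 7.59 Mb. Most splits were into 2 (4854 places), 952 were into 3 and 401 into 4 or more. The most divided was a siCtrl region of 32.9 kb on chromosome 22 from 38003660 to 38036511, which 11 siE2F3 regions covered over 28.8 kb. A siCtrl region of 22.2 kb on chromosome 11 from 62378896 to 62401051 met 9 siE2F3 regions covering 20.2 kb. In the other direction, 7 siCtrl regions on chromosome X from 112029985 to 112043655 met 1 siE2F3 region of 13.4 kb.

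Long siCtrl regions of at least 10 kb were all still occupied. Each of the 850 overlapped siE2F3, the least covered over 67.7% of its length, and the median covered share was 95.2%. Of them, 241 met 1 siE2F3 region and 609 met 2 or more, 94 of these 5 or more. Of the 613 long siE2F3 regions, 406 met 1 siCtrl region and 207 met 2 or more, and the median share covered by siCtrl was 99.5%. Most long siCtrl regions thus met several siE2F3 regions that together covered nearly all of their length.

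Lost regions, those of siCtrl with no overlap in siE2F3, numbered 25567, or 30.6% of the list. Gained regions, those of siE2F3 with no overlap in siCtrl, numbered 18997, or 22.9%. Both sets were short and weak. Lost regions had a median width of 389 bp, against 907 bp for shared siCtrl regions, and gained regions 348 bp, against 748 bp for shared siE2F3 regions. The longest lost region spanned 4.65 kb and the longest gained one 1.91 kb, and 34 lost and 0 gained regions reached 2 kb. A -log10 q of the authors of at least 10 was reached by 418 lost and 152 gained regions. Many lay beside a region of the other list: 42.7% of the lost regions were within 1 kb of an siE2F3 region and 78.4% within 5 kb, and 691 were more than 50 kb away. Of the gained regions, 46.7% were within 1 kb of a siCtrl region and 79.1% within 5 kb.

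Few lost or gained regions were seen in the other Pol2S5p lists. Both of these lists hold fewer regions, 40626 in H1-10 OE and 35493 in Ctrl. The Ctrl list held 7.40% (7.08 to 7.72%) of the lost, 4.87% (4.57 to 5.18%) of the gained and 36.4% of the shared siCtrl regions. The H1-10 OE list held 6.84% (6.53 to 7.15%) of the lost, 3.70% (3.44 to 3.98%) of the gained and 42.8% of the shared siCtrl regions. The E2F3 list of Ctrl held 2.78% (2.58 to 2.99%) of the lost, 0.879% (0.756 to 1.02%) of the gained and 23.6% of the shared siCtrl regions. For the gained regions the shared siE2F3 regions are the nearer comparison. Of these, Ctrl held 35.4%, H1-10 OE 41.1% and the E2F3 list of Ctrl 21.9%. By chromosome, the lost share ran from 27.4% on chromosome 21 to 34.1% on chromosome 22, and the gained share from 17.6% on chromosome 19 to 30.6% on chromosome 13. Absence fell with strength in both directions. In the fifth of 10 strength classes 38.2% of the siCtrl and 27.7% of the siE2F3 regions were absent from the other list, and in the eighth 3.75% and 1.83%. The shares of lost, gained and shared regions in the other lists are not matched for strength. Of the 8365 siCtrl regions in a class, H1-10 OE held 547 in the weakest and 8363 in the strongest. At matched strength, siCtrl regions also found in H1-10 OE were absent less often: in the weakest class 46.8% of 547 with and 62.7% of 7818 without were absent.

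**Figure D4:**
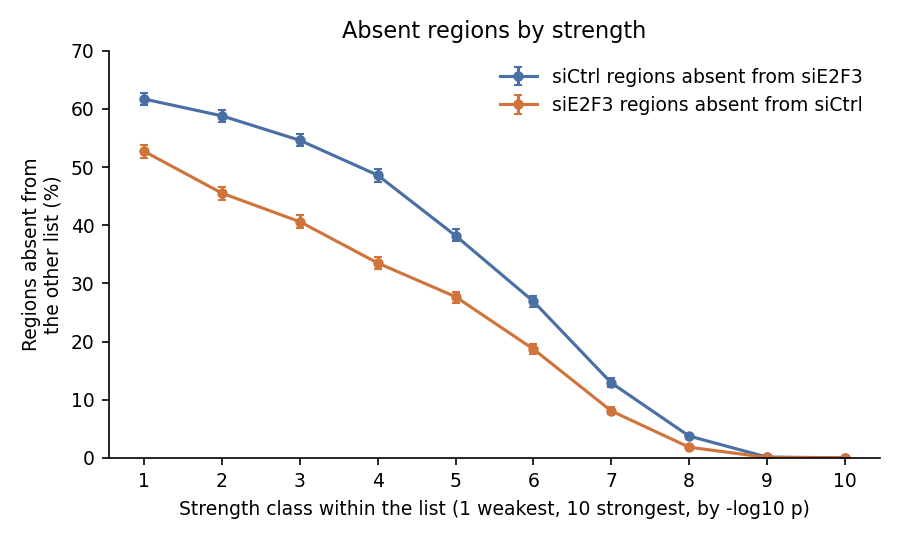
Share of regions in % with no overlap in the other list, by strength class within each list (10 classes of equal size ordered by the authors' -log10 p), with 95% Wilson intervals. Both lines fall to 0 in the strongest class, and the siCtrl line lies above the siE2F3 line in classes 1 to 9.

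The cell-cycle genes were described by the length that regions covered within 5 kb either side of the gene start. Of 129 genes in 6 lists, 127 had a region within 1 kb of the start in both libraries, and no gene had one in 1 library alone. The remaining pair were CDKN1A, an inhibitor of cyclin-dependent kinases, and RPA3, a subunit of the single-strand DNA binding complex, at the starts used here. Gene starts on hg19 were written from general knowledge, since no hg19 annotation was used, so a gene with several starts may be read at one of them. Coverage was lower in siE2F3 for 64 of the 128 genes with any, higher for 63 and equal for 1, with a median ratio of 0.999 and a middle 50% from 0.925 to 1.08. The summed length went from 558 to 546 kb. Upstream of the starts the ratio of sums was 0.953 and downstream 0.992. In 4 genes the covered length was lower by at least 1.5 times and in 1 it was higher. The same call was made lower in 6.27% and higher in 1.77% of windows on the strongest 10% of siCtrl summits, and lower in 29.3% and higher in 4.65% of windows on all siCtrl summits. Windows on siCtrl summits start from siCtrl coverage, and on all siE2F3 summits the shares were 14.7% lower and 13.4% higher. Windows on the strongest 10% of siE2F3 summits were called lower in 5.58% and higher in 1.99%. The cell-cycle calls are thus no larger a share than in strong windows at large. Among 18 housekeeping genes, 0 were called in either direction, 7 were lower and 10 higher, and the median ratio was 1.00.

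**Figure D5:**
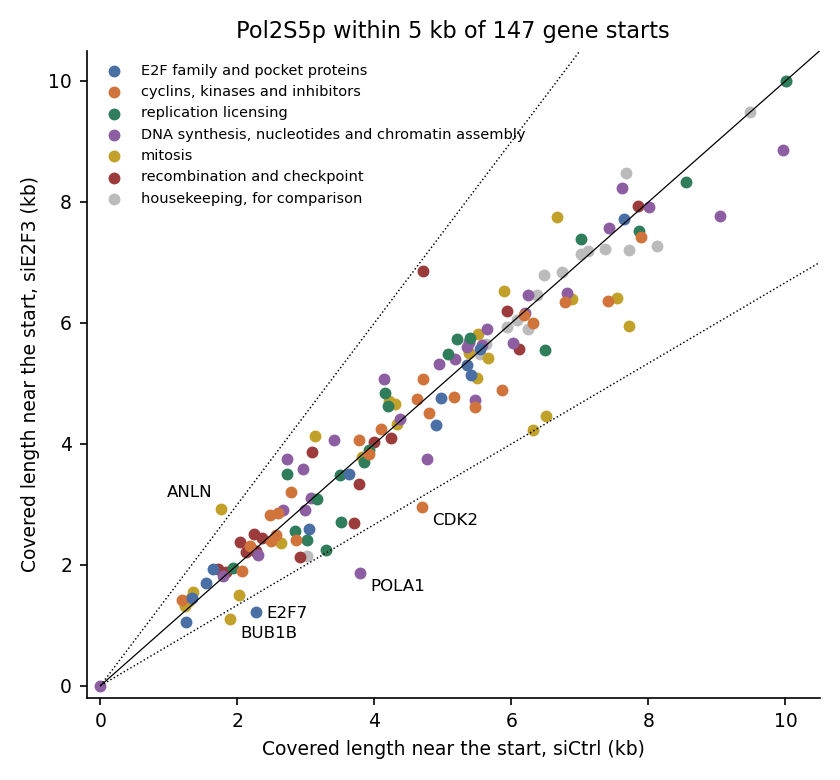
Length in kb covered by Pol2S5p regions within 5 kb either side of the start in siCtrl (x) and siE2F3 (y), 1 point per gene, for the 129 cell-cycle and 18 housekeeping genes, coloured by list. The solid line marks equal length and the dotted lines a 1.5-fold difference; POLA1, CDK2, E2F7 and BUB1B lie below the lower line and ANLN above the upper one.

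In the E2F family and its pocket proteins, 8 of 13 genes were lower and 5 higher, with 1 call and a median ratio of 0.965. E2F7, which represses E2F targets late in the cycle, had 2.27 kb covered in siCtrl and 1.23 kb in siE2F3, a ratio of 0.541. Its region at the start, on chromosome 12 from 77458359 to 77460124 in siCtrl, became 77458797 to 77460023, and the number of regions in the window went from 3 to 1. Downstream of the E2F7 start 0.564 kb remained covered in siE2F3, while upstream coverage went only from 0.764 to 0.663 kb. The start itself thus stayed covered and most of the difference lay in the first part of the gene. E2F8, the other repressor of this type, went from 3.05 to 2.60 kb. The pocket protein gene RBL1 went from 4.90 to 4.32 kb and RBL2 had a ratio of 0.852, while RB1 went from 1.64 to 1.93 kb and E2F6, a repressor that needs no pocket protein, from 1.54 to 1.70 kb. None of these 5 passed 1.5 times. E2F6 went the other way nearer its start: the ratio within 2 kb was 0.678, and the region at the start went from 1.44 to 0.973 kb. Within 5 kb of the start, the activator genes were nearly equal in both libraries. E2F1 had 5.54 and 5.57 kb, E2F2 5.41 and 5.14 kb, and E2F3 itself 4.97 and 4.76 kb. Within 10 kb the ratio was 0.744 for E2F3, 0.925 for E2F2 and 1.00 for E2F1. Over the whole E2F3 gene the covered length went from 20.6 to 15.8 kb. E2F1 lies under a region of 13.7 kb in siCtrl and 13.1 kb in siE2F3 that reaches well beyond the gene.

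Among cyclins, their kinases and inhibitors, 15 of 24 genes were lower and 9 higher, with 1 call and a median ratio of 0.965. CDK2, the kinase partner of cyclins E and A in S phase, had 4.69 kb in siCtrl and 2.96 kb in siE2F3, a ratio of 0.631. The difference lay downstream, where coverage went from 3.95 to 2.24 kb. Its region at the start did not narrow: on chromosome 12 it ran from 56359814 to 56361617 in siCtrl and from 56359834 to 56361815 in siE2F3. Over the CDK2 gene the covered share went from 72.9 to 47.6%. CKS1B, a small subunit of cyclin-dependent kinases, went from 5.86 to 4.88 kb, CDC25B, a phosphatase that activates CDK1, from 5.47 to 4.62 kb, and CDK4, the partner of D cyclins, from 7.40 to 6.37 kb. CDC25C and CDKN2C had the highest ratios, with 1.19 and 1.42 kb and with 2.78 and 3.20 kb. Cyclin genes known as E2F targets were close in this window: CCNE1 had 2.49 and 2.40 kb and CCNA2 2.59 and 2.85 kb. CDK1 had 2.18 and 2.31 kb. Other settings moved these values. Within 2 kb the ratio was 0.809 for CCNE1, 0.855 for CCNA2 and 1.07 for CDK1. Within 10 kb it was 0.853, 1.12 and 1.10, and at a -log10 q of at least 5 it was 0.963, 1.10 and 0.787.

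No gene of replication licensing was called, and of 20 genes 11 were lower, 8 higher and 1 equal, with a median ratio of 0.996. MCM10, which helps fire the loaded helicase, was lowest at a ratio of 0.680, going from 3.29 kb to 2.24 kb. GINS4 and GINS3, subunits of the active helicase, went from 3.52 to 2.71 kb and from 3.01 to 2.42 kb. CDC6, which loads the MCM helicase on origins, went from 6.49 to 5.56 kb, with the difference upstream, from 1.72 to 0.815 kb. Other members stood on the other side of 1 in this window. GINS2 had 2.73 and 3.50 kb, MCM3 4.15 and 4.84 kb, MCM2 5.39 and 5.75 kb and MCM5 7.01 and 7.39 kb, in siCtrl and siE2F3. The MCM2 ratio was 0.865 within 2 kb, 0.939 within 10 kb and 0.953 at a -log10 q of at least 5. The MCM5 ratio was 1 within 2 kb, 1.03 within 10 kb and 0.932 at that q minimum. GINS2 and MCM3 stayed above 1 in each of these settings.

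The genes of DNA synthesis, nucleotide supply and chromatin assembly held the lowest ratio of all 6 lists. POLA1, the catalytic subunit of the polymerase that starts new DNA strands, had 3.79 kb in siCtrl and 1.87 kb in siE2F3, a ratio of 0.494. The window of POLA1 held 4 regions in siCtrl and 2 in siE2F3. At the start, the siCtrl region on chromosome X from 24711414 to 24712599 was matched by an siE2F3 region from 24711431 to 24712507. The difference lay downstream, where coverage went from 3.21 to 1.31 kb. In Ctrl and H1-10 OE the POLA1 window held 0.949 and 0.795 kb, and E2F3 of Ctrl covered 0.927 kb at the start. The list as a whole did not follow POLA1: 11 of 29 genes were lower, 17 higher, and the median ratio was 1.01. CHAF1B, of the chromatin assembly factor, went from 4.77 to 3.76 kb, FEN1, the flap nuclease, from 9.04 to 7.76 kb and UHRF1, which maintains DNA methylation, from 5.46 to 4.73 kb. RFC3, of the clamp loader, went from 2.73 to 3.74 kb, a ratio of 1.37. RRM1 and RRM2, subunits of ribonucleotide reductase, had 4.14 and 5.07 kb and 8.00 and 7.92 kb. PCNA, the sliding clamp, had 2.67 and 2.91 kb.

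The mitosis list held a call in each direction, with 12 of 25 genes lower, 13 higher and a median ratio of 1.02. BUB1B, a kinase-like protein of the spindle checkpoint, had 1.89 kb in siCtrl and 1.10 kb in siE2F3, a ratio of 0.580. At its start on chromosome 15 the siCtrl region from 40452859 to 40453690 was matched by an siE2F3 region from 40452755 to 40453685, and the number of regions in the window went from 4 to 2. Over 2 kb either side, the BUB1B ratio was 1.12 and the CDK2 ratio 1.10, the opposite direction. ANLN, an actin-binding protein of the cleavage furrow, had 1.76 kb in siCtrl and 2.92 kb in siE2F3, a ratio of 1.66. At its start the regions were nearly the same, chromosome 7 from 36428552 to 36430312 and from 36428651 to 36430328, and siE2F3 had 2 further regions downstream. Within 2 kb of the ANLN start the ratio was 1.01. FOXM1, a transcription factor of mitotic genes, went from 6.31 to 4.23 kb, with downstream coverage from 3.13 to 0.973 kb, and its ratio of 0.670 lay just short of the call. The FOXM1 ratio was 1.08 within 2 kb, 0.903 within 10 kb and 0.976 at a -log10 q of at least 5. CENPA, the centromeric histone, went from 6.50 to 4.47 kb, a ratio of 0.687. BUB1, another checkpoint kinase, went from 3.14 to 4.13 kb, and TPX2, a spindle assembly factor, had a ratio of 0.740. MYBL2, a transcription factor that acts before FOXM1, had 5.66 and 5.42 kb.

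In the recombination and checkpoint list no gene was called, 7 of 18 were lower and 11 higher, and the median ratio was 1.02. MSH6, a mismatch repair protein, went from 6.12 to 5.57 kb. FANCD2, of the Fanconi anaemia pathway, went from 3.70 to 2.69 kb and BRCA1 from 3.78 to 3.33 kb. CHEK1, the checkpoint kinase acting downstream of ATR, went the other way, from 4.70 to 6.86 kb, a ratio of 1.46. Its region at the start on chromosome 11 ran from 125493896 to 125497018 in siCtrl and from 125492305 to 125497324 in siE2F3. CLSPN, the adaptor that activates CHEK1, had 3.10 and 3.86 kb.

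E2F3 was found at nearly all of these starts in Ctrl cells. E2F3 of Ctrl lay within 1 kb of 126 of the 129 starts, as it did of 18 of 18 housekeeping starts. E2F3 of H1-10 OE lay within 1 kb of 60 cell-cycle and 5 housekeeping starts. The E2F3 lists differ in size over the whole genome, with 22988 regions in Ctrl and 4296 in H1-10 OE. Fewer E2F3 regions in H1-10 OE were thus seen over the whole genome as well as at these starts. Whether these starts kept E2F3 more or less often than other places was not tested. The 60 genes with E2F3 of H1-10 OE had a median ratio of 0.977, with 34 lower, 25 higher and 2 called lower. Among genes in the promoter table, the 33 with an E2F-type motif had a median ratio of 0.995 and the 72 without 1.02. Of those 33, E2F3 of H1-10 OE lay at the start in 25, and of those 72 in 30.

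Marker genes were read in the same way as a check of the labelled cells. Of 10 luminal prostate markers, 7 had a region within 1 kb of the start in siCtrl and 6 in siE2F3, and 1 was called lower in siE2F3. Those with a region in both lists included HOXB13, FOXA1, KRT8, KRT18 and SLC45A3. KLK3, KLK2 and TMPRSS2, genes of secreted or surface proteases of the luminal cell, were at 0 kb in siCtrl, siE2F3 and H1-10 OE, while Ctrl had 3.88, 4.54 and 0.388 kb. Markers of basal prostate, fibroblasts, blood and liver had no region within 1 kb of the start in siCtrl or siE2F3, in 0 of 3, 0 of 3, 0 of 2 and 0 of 2 genes, and 2 of 3 neuroendocrine markers, SYP and INSM1, had one in both.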

How the data were processed

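Pol2S5p ChIP-seq libraries of 22Rv1 cells with siCtrl or siE2F3 were compared, 1 library per group, grouped by the labels. The genome build was hg19 and reads went through fastp, FastQC and Bowtie, per the submitters' processing notes. Which program called the peaks, at what threshold and against which input is not given in the sources used here. The authors' deposited lists, 1 per library and not pooled, give positions, a summit offset, a score per peak, a ratio called fold enrichment (summit over the caller's background), and -log10 p-values and -log10 q-values. These values are the authors' and only rank or filter peaks within a list. Folder tags in the peak names differ between the siRNA and E2F3 lists and the Pol2S5p lists of Ctrl and H1-10 OE, so the authors' processing may differ between these sets.

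Overlapping or touching rows were joined, which changed no list. Regions were shared from 1 bp of overlap. Gene coverage was summed within 5 kb either side of a start, called from 1.5 times. The starts of 170 genes on hg19 were hand-written from general knowledge; against RefSeq all 170 lay on the same chromosome and 133 of 133 on the same strand, the order was the same on 23 of 23 chromosomes, and the length was within 5% for 136. No coordinates were converted between builds. The members and lists were chosen with earlier results of these data known. Genes named were, per list, the 4 lowest and 2 highest ratios, those occupied in 1 list, and 14 fixed genes; cell type markers formed lists of their own. Regions named were among the 5 largest of each kind. Alternatives were equal numbers of peaks, a minimum -log10 q of 5, merging within 1 kb, autosomes, 50% reciprocal overlap, summit overlap, windows of 2 and 10 kb, a lower fold (a ratio of 0.8 or its inverse) and a fold of 2, and, chosen after seeing the data, subtracting each list's shortest width. The overlap code was tested on simulated data and checked with bedtools 2.31.1. Computations ran on Python 3.11.15 (scipy 1.17.1, pandas 2.3.3, numpy 2.4.6), with figures from matplotlib 3.10.9. H3K27me3, H1-10 and input libraries were not used here, and some genes of the lists are not reported here.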

Additional observations from a re-analysis of the deposited data

How the results depend on the processing

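No paired analysis was possible because each group has 1 library. Every setting kept the lower coverage and the narrower pairs. Regions in siCtrl alone and in siE2F3 alone numbered 12981 and 9806 at a -log10 q of at least 5, 13760 and 11188 with peaks within 1 kb merged, and 44884 and 44301 at 50% reciprocal overlap. The ratio of covered length was 0.877 at the q minimum, 0.887 with equal numbers of peaks, 0.898 merged and 0.884 on autosomes. The median width ratio was 0.941 merged, 0.943 for pairs at 50% reciprocal overlap and 0.918 with the shortest width subtracted, chosen after seeing the data; the share narrower was 59.8% for reciprocal pairs, 59.1% with that subtraction and 63.0% at the q minimum. Cell-cycle genes called lower numbered 3 within 2 kb, 7 within 10 kb, 13 at the lower fold, 1 at 2 times and 7 at the q minimum. Those called higher numbered 0 within 2 kb, 5 at the lower fold, 0 at 2 times and 5 at the q minimum. The share called over windows at large was found only for 5 kb and 1.5 times. At the other settings these counts therefore have no background beside them and cannot be read as many or few. The called genes changed: of the 4 called lower, POLA1 alone was called within 2 kb, where E2F7 had 0.695, and 3 were called within 10 kb and 3 at the q minimum. POLA1 was called lower in each of these settings. BUB1B turned to 1.12 within 2 kb and 1.07 at the q minimum, and CDK2 to 1.10 within 2 kb; the cause was not tested. Of 141 values for 47 named genes under the other windows and the q minimum, these 3 reversed a call. The unknown read depth limits every count, since it moves with the number and width of regions called.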
